A study of Mus musculus with 6 samples.

Results

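Extracellular proteolysis in the ipsilateral cortex was followed for 10 genes, the tissue inhibitors of metalloproteinases Timp1, Timp2, Timp3 and Timp4, the secreted proteases Adamts1, Adamts4, Adamts5 and Adamts9, and the membrane-anchored proteases Adam8 and Adam12. They were chosen by name and are 10 of the 15441 genes with a value in at least 1 library. A gene's value in a library is the largest of the summed FPKM of its transcript starts, the summed FPKM of its transcript ends and the FPKM of any single event, where FPKM is the number of fragments per kilobase of transcript, scaled to the size of the library. The mice were male C57/BL6J animals aged 6 to 8 weeks, with no genetic change named in the labels or methods. Stroke was induced by photothrombosis, in which the dye Rose Bengal is given and cold light shone on the skull clots the vessels of the illuminated cortex. Stroke mice were taken on day 1, 3, 7, 14 or 28 (d1 to d28), and the control mice were sham-operated without illumination and taken on day 7 after the operation, which serves as the control for all 5 stroke days. Each of the 6 groups is 1 poly(A) library for which the RNA of 3 mice was combined. There is therefore no replicate, no test and no error for any value. The tissue was the whole cortex of the injured side, so lesion and surrounding cortex are mixed. In such bulk samples, fewer cells of a type and less RNA per cell cannot be told apart.

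Tissue inhibitors of metalloproteinases block the active site of matrix metalloproteinases and, to differing degrees, of Adam and Adamts enzymes. The Adamts enzymes are secreted proteases with thrombospondin repeats, and several of them cut the chondroitin sulfate proteoglycans aggrecan, brevican, neurocan and versican, which fill the space between brain cells and surround synapses. Adam8 and Adam12 sit in the cell membrane and cut the outer parts of other membrane proteins. In the injured brain these enzymes and inhibitors are known from work on the blood-brain barrier, on glial scars and on the remodelling of the matrix around neurons.

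The libraries listed between 79330 events (day 14) and 93931 events (day 7), and the labels give a mean of 33.6 M reads for a sample, with the depth of each library unknown. The files list no value of 0, and Tubb3, a marker of neurons, had no value in any of the 6 tables used although neurons express it. Mobp, a marker of oligodendrocytes, had none under its own identifier, since the events in its span carry that of another gene. For the 10 members, no event on their strand and inside their span carried another gene's identifier. A gene that is "not listed" is therefore not shown to be absent, and no ratio is given against such a library. The other 5 of the 6 neuron markers were listed everywhere, and their summed FPKM was 1462 in control, 1359 at d1, 1041 at d3, 1076 at d7, 979 at d14 and 1258 at d28. At d14 Snap25, Syt1 and Slc17a7 were below control. Rbfox3 (91.5 against 89.9 in control) and Gad1 (77.3 against 70.3) were above it. Choroid plexus markers were listed in full in each library, with sums from 187 at d3 to 568 at d28. Ttr alone was 176.7 of the d3 sum and 548.5 of the d28 sum. Of 5 hypothalamic peptide genes, none was listed in control and 2 to 4 were listed in each stroke library, with sums from 4.49 at d28 to 55.9 at d1. These sums differed between libraries labelled as the same tissue, and their part in the results was not tested.

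Timp1, Adamts1 and Adam8 were the members counted as higher than control at d1, and the 250 bases before their annotated transcription starts are given here in the direction of transcription, from RefSeq on GRCm38.p6. Capitals mark the GC box GGGCGG or its reverse complement CCGCCC, and the TATA box TATAAA or its reverse complement TTTATA. The windows lie at chrX:20869916-20870165 on the plus strand for Timp1, at chr16:85803114-85803363 on the minus strand for Adamts1, and at chr7:139992563-139992812 on the minus strand for Adam8.
Timp1: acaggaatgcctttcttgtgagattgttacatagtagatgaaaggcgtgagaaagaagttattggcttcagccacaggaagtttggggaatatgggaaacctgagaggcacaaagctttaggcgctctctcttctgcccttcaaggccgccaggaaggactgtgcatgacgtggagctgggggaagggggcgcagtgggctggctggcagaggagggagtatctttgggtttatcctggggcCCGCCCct
Adamts1: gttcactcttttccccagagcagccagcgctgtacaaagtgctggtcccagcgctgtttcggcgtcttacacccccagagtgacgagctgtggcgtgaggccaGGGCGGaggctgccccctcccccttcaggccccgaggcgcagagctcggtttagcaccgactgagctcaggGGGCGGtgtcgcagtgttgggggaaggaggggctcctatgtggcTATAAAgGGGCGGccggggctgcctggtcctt
Adam8: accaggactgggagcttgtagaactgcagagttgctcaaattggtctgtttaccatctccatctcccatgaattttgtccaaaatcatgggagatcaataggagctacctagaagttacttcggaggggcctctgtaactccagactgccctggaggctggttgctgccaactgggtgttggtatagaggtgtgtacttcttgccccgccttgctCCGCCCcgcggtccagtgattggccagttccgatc
The RefSeq start was the same base as a transcript start in the deposited tables for Timp1 and Adamts1, and lay 14 bases from the nearest one for Adam8. The GC content was 54.4% for Timp1, 65.6% for Adamts1 and 52.8% for Adam8, beside a median of 52.4% over all 32851 promoters searched. Timp1 held 1 GC box starting at -8, Adam8 held 1 at -35, and Adamts1 held 3, at -147, -76 and -25, with a TATA box at -32 that did not overlap them. Windows were found for 7 of the 10 members, all but Adamts4, Adamts5 and Adam12. A GC box was present in 6 of the 7 (not in Timp4), against 32.7% of all promoters, and a TATA box in 1 of the 7 against 12.4%. The GC content of the other windows was 71.2% for Adamts9, 68.0% for Timp2, 65.6% for Timp3 and 53.6% for Timp4. The shares over all promoters were not matched for GC content, so no excess of GC boxes is shown. Those promoters belong to 27025 genes, so some genes have more than 1. The AP-1 letters TGANTCA were in 0 of the 7 windows and 6.75% of all promoters, and the STAT letters TTCNNNGAA in 0 of the 7 and 7.02%, both searched on both strands. A match is a run of letters and not a shown binding site, and a missing match concerns these 250 bases only.

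Members were compared with control when the FPKM was at least 1 in 1 of the 2 libraries, and counted as higher or lower when log2((FPKM + 0.1)/(control FPKM + 0.1)) was at least 1 in size, with genes not listed counted as 0. At day 1, 3 of the 7 members compared were higher (Timp1, Adamts1 and Adam8) and 0 were lower, while 5.11% of all 11790 genes compared were higher and 4.48% lower. On day 3, 4 of 9 were higher (Timp1, Adamts9, Adam8 and Adam12) and 0 lower, beside 8.54% and 2.53% of all genes. At day 7, 3 of 8 were higher (Timp1, Adamts9 and Adam8) and 0 lower, beside 8.53% and 2.12%. Timp1 and Adam8 were the 2 of 7 that were higher at d14, when 1 member, Adamts1, counted as lower because it was not listed, beside 8.97% of all genes higher and 6.92% lower. By day 28, 0 of the 5 members compared were higher or lower, beside 3.68% and 2.79%. Over all genes compared the median log2 ratio was 0.01 at d1, 0.10 at d14 and 0.03 at the other days. Adam8 and Adam12 entered these counts only through the stroke libraries, since control does not list them. Timp1 (0.278 in control) and Adamts9 (0.484) also passed the filter only through the stroke libraries. Adamts9 was under 1 in both libraries at d1 (-1.93) and d28 (-2.34), so these lower values were not compared. Over members listed in both libraries, 2 were higher at each of d1, d3 and d7, so the counts give no order of the days. Timp1 was among them each time, with Adamts9 at d3 and d7. With an FPKM of at least 1 in both libraries, 1 was higher at d1 (Adamts1) and 0 at d3, d7 and d14. For these other filters the share over all genes was not counted. With 1 library per group none of these counts was tested.

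**Figure D1:**
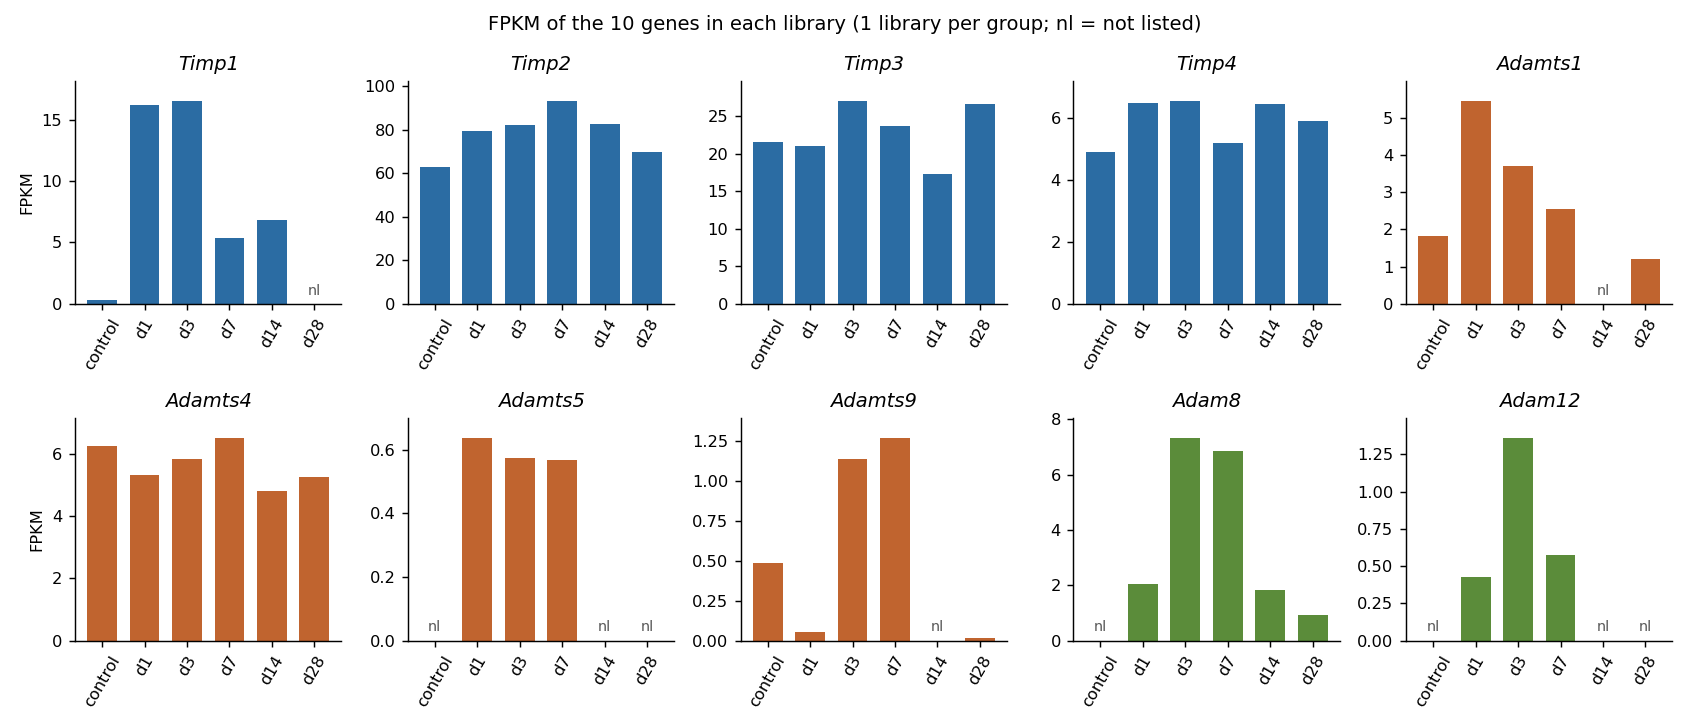
FPKM (y axis from 0, its own scale for each gene) of the 10 members in the control library and at each day after stroke (x axis), 1 bar per library, with nl where a gene was not listed. Timp2 stays between 63.1 and 93.1, while Timp1 goes from 0.278 in control to 16.5 at d3.

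Timp1, a secreted inhibitor that many cell types make after injury, had an FPKM of 0.278 in control, 16.2 at d1, 16.5 at d3, 5.33 at d7 and 6.86 at d14, and was not listed at d28. Its level at days 1 and 3 was higher than at days 7 and 14, and all 4 were far above control. The log2 ratio to control was 5.43 at d1, 5.46 at d3, 3.84 at d7 and 4.20 at d14, and the plain ratios of FPKM were 58.1, 59.3, 19.2 and 24.7. Among genes compared and listed in both libraries, Timp1 had the 2nd highest ratio at d1 (of 11545) and at d3 (of 11810), the 19th at d7 and the 16th at d14. The control value is low, so the size of these ratios depends on it. Timp1 is on the X chromosome at chrX:20870166-20874735 on the plus strand and lies inside an intron of Syn1, a synaptic vesicle gene on the other strand. Syn1 itself had 124.9 in control, 123.0 at d1, 93.1 at d3, 95.5 at d7, 132.3 at d14 and 105.0 at d28, below control at each day but d14.

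Timp2, which besides inhibiting matrix metalloproteinases helps the membrane enzyme Mmp14 to activate pro-Mmp2, was the most abundant member in each library. Its FPKM was 63.1 in control, 79.3 at d1, 82.0 at d3, 93.1 at d7, 82.8 at d14 and 69.8 at d28. Each stroke library was above control, and the highest log2 ratio was 0.56 at d7, under the threshold of 1. At day 3 the value includes 0.729 from a locus on the opposite strand to Timp2, and without it the value was 81.3. The gene spans chr11:118301069-118355740 on the minus strand.

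Timp3 binds the matrix itself and also inhibits Adam17 and the aggrecan-cutting Adamts enzymes. Its FPKM was 21.6 in control, 21 at d1, 27.0 at d3, 23.7 at d7, 17.3 at d14 and 26.6 at d28, with log2 ratios between -0.32 and 0.32, so it was above control at 3 days and below it at 2. The value rests on the transcript start, since an end event was listed only in control (0.337) and at d1 (0.116). It lies at chr10:86300372-86349506 on the plus strand inside Syn3, which is on the other strand and shares 1 stretch of exon with it. Syn3 was low throughout, from 0.502 in control to 2.14 at d28.

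Timp4, an inhibitor with a narrow range of tissues that includes brain and heart, had 4.9 in control, 6.49 at d1, 6.54 at d3, 5.19 at d7, 6.44 at d14 and 5.90 at d28. All 5 stroke libraries were above control, by log2 ratios of 0.08 to 0.41. The gene lies at chr6:115241892-115252205 on the minus strand inside Syn2, on the other strand, and 1 of its exons overlaps a Syn2 exon. Syn2 ranged from 103.4 at d3 to 116.7 at d1. The libraries were strand-specific, and Timp4 had 2 transcript ends, of which the distal one held most of the value.

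**Figure D2:**
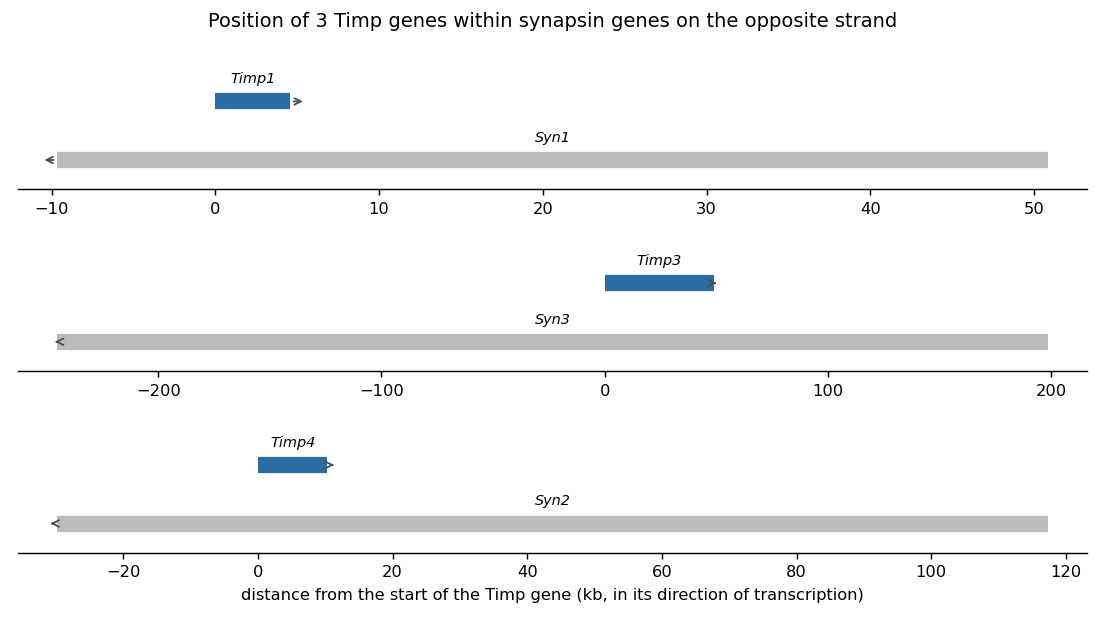
Gene spans of Timp1, Timp3 and Timp4 with the synapsin gene that contains each on the other strand (x axis, distance in kilobases from the inhibitor's start in its direction of transcription). Blue bars are the inhibitor genes, grey bars the synapsin genes and arrows the direction of transcription, and each inhibitor lies wholly inside its synapsin gene.

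Added together, the 4 inhibitors had an FPKM of 89.9 in control, 122.9 at d1, 132.0 at d3, 127.3 at d7, 113.4 at d14 and 102.2 at d28. Every stroke library had a higher sum than control. Timp1 made up 0.309% of the sum in control, 13.1% at d1, 12.5% at d3, 4.19% at d7 and 6.05% at d14. Timp2 was the largest share in every library, from 62.1% at d3 to 73.1% at d7.

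**Figure D3:**
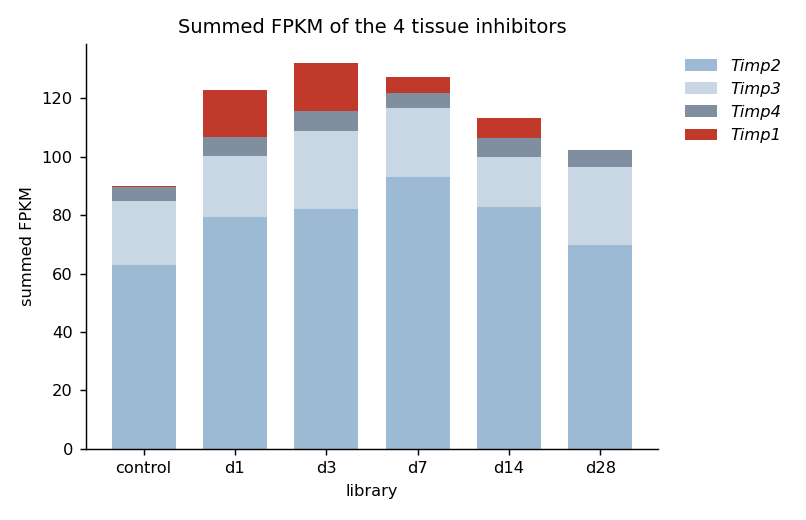
Stacked FPKM of Timp2, Timp3, Timp4 and Timp1 in each library (y axis from 0, 1 bar per library). The total goes from 89.9 in control to 132.0 at d3, and the Timp1 part is 0.309% of the control bar and 13.1% of the day 1 bar.

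Adamts1, which cuts versican and aggrecan and is made by many cells in inflammation, had 1.83 in control, 5.44 at d1, 3.69 at d3, 2.55 at d7 and 1.21 at d28, and was not listed at d14. The stroke values were highest at d1 and lower at each later day at which the gene was listed. Log2 ratios were 1.52 at d1, 0.97 at d3, 0.45 at d7 and -0.56 at d28. The value rests on the transcript start, as the end event was at 0.0728 in control and at most 0.559 elsewhere. Of the 1624 genes within 1.5-fold of the Adamts1 level in control, 137 (8.44%) were not listed at d14, against 23 (1.42%) at d7 and 60 (3.69%) at d1. At day 14 the log2 ratio over all genes also went down with transcript length (Spearman's rho -0.413 across 12025 genes, which are not independent replicates), and rho was -0.254 at d1, where Adamts1 was counted as higher, 0.00325 at d3, -0.0893 at d7 and -0.036 at d28. The longest Adamts1 transcript is 4884 nucleotides, against a median of 3178 over all genes, and the part of length in the missing day 14 value was not tested. Adamts1 lies at chr16:85793827-85803113 and Adamts5 at chr16:85856173-85901828, both on the minus strand and 53059 bases apart.

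Adamts4 and Adamts5 are the main aggrecan-cutting enzymes, and Adamts4 is known in brain from oligodendrocytes. Adamts4 had an FPKM of 6.26 in control, 5.32 at d1, 5.84 at d3, 6.52 at d7, 4.81 at d14 and 5.28 at d28. Among the Adamts members it stayed nearest to control, with log2 ratios between -0.37 and 0.06, below control in 4 of the 5 stroke libraries. The gene lies at chr1:171250421-171260637 on the plus strand. The summed FPKM of the 6 oligodendrocyte markers, all listed but Mobp, ranged from 1548 at d28 to 2177 at d1. Adamts5 was listed at d1 (0.637), day 3 (0.573) and day 7 (0.569) and not in control or at days 14 and 28. These values were under an FPKM of 1 and came from a transcript end alone, so Adamts5 was in no comparison.

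Adamts9, a versican-cutting enzyme, had 0.484 in control, 0.0534 at d1, 1.14 at d3, 1.27 at d7 and 0.0151 at d28, and was not listed at d14. Its log2 ratio was 1.08 at d3 and 1.23 at d7. These calls depended on which transcript start was counted. The control value of 0.484 came from the first start of the gene (chr6:92943041-92943492, minus strand), which had 0.568 at d3 and was not listed at d7. An internal start close to the other end of the gene (chr6:92787123-92787357) gave 0.571 of the day 3 value and the whole 1.27 at d7. The sum of the transcript ends gave the opposite direction at d7, a log2 ratio of -1.46. The 4 Adamts members added to 8.58 in control, 11.4 at d1, 11.2 at d3, 10.9 at d7, 4.81 at d14 and 6.51 at d28, and Adamts4 was 73.0% of the control sum, 46.5% of that at d1 and all of that at d14.

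**Figure D4:**
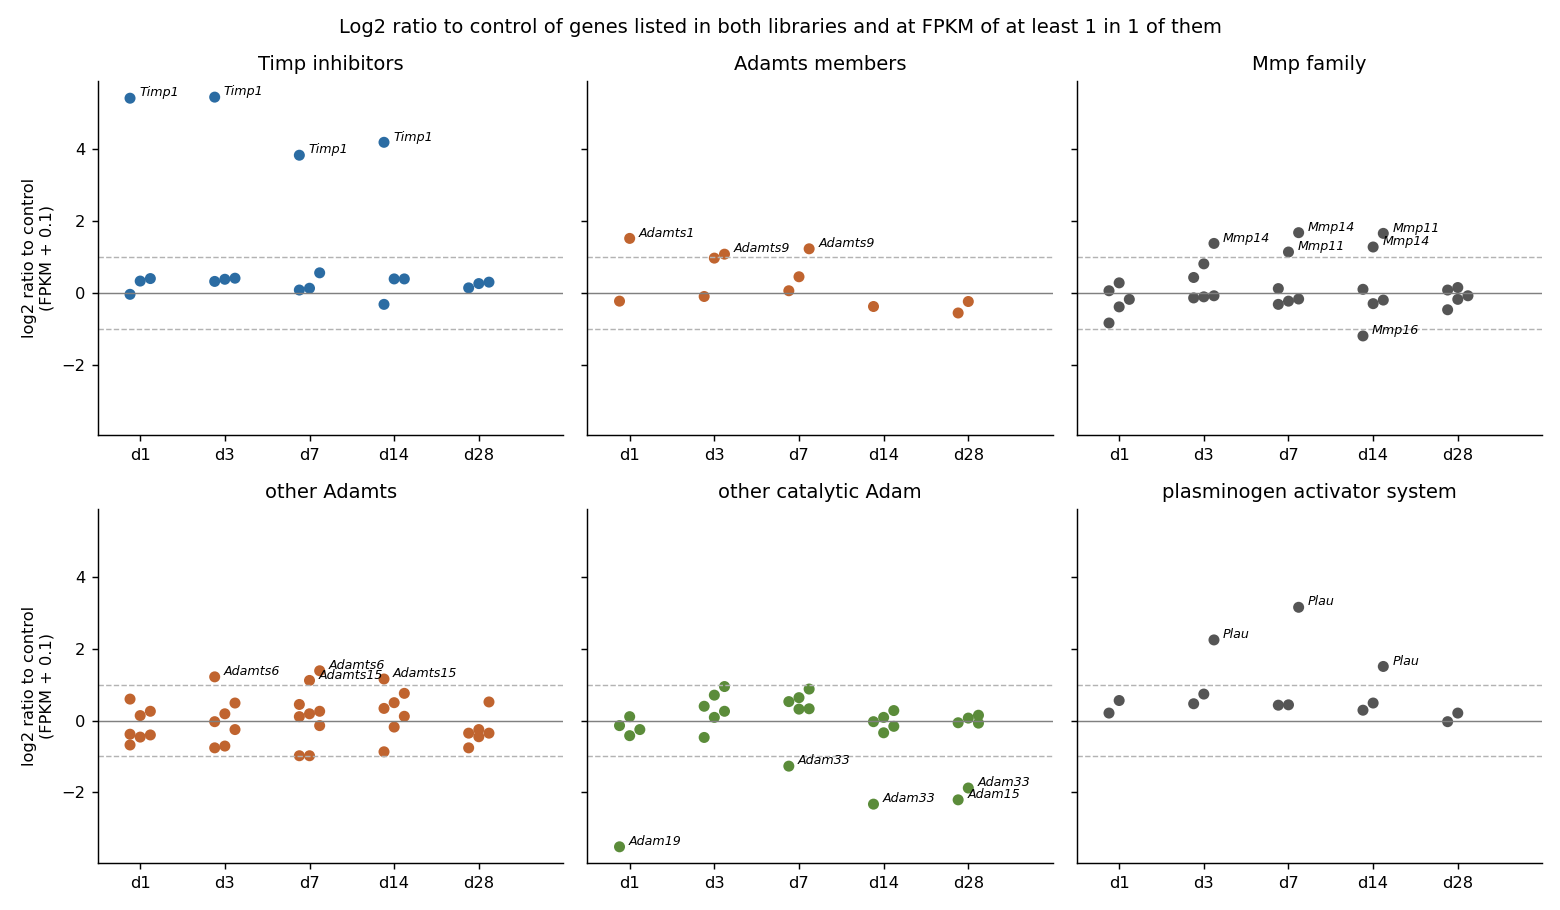
Log2 ratio to control (y axis) at each day (x axis) for the Timp and Adamts members and 4 further families, 1 point per gene listed in both libraries and at FPKM of at least 1 in 1 of them, with dashed lines at the threshold of 1 and names for genes past it. Adam8 and Adam12 have no ratio because control does not list them. Timp1 lies between 3.84 and 5.46 at days 1 to 14, while Timp2, Timp3, Timp4 and Adamts4 stay within 0.56 of 0.

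Adam8, a protease of leukocytes and activated microglia that cuts adhesion molecules, was not listed in control and had an FPKM of 2.03 at d1, 7.33 at d3, 6.85 at d7, 1.82 at d14 and 0.92 at d28. Days 3 and 7 were the highest, and each of the 5 stroke libraries listed the gene. Since control has no value, no fold is given. The gene lies at chr7:139978932-139992562 on the minus strand. Its first exon was a listed start at d1 (1.38), day 3 (7.33) and day 7 (6.85). At day 14 the only listed start was an internal one (chr7:139988379-139988430, 1.58), and at d28 no start was listed.

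In Adam8, 2 introns, which begin 5003 and 7226 bases from the gene's start, had both a retained and a spliced form in the tables. In each of them the retained form had 0.644 and the spliced form 1.38 at d1, a retained share of 31.7%, and 0.312 and 1.51 at d14, a share of 17.1%. At days 3 and 7, where the gene was highest, the tables had the spliced form of both introns and no retained form. At day 28 the retained form alone was listed, at 0.729 for the nearer intron and 0.347 for the farther one. Another intron, 5830 bases from the start, had only a spliced form at days 1 to 14. These shares rest on values of a few FPKM and on the authors' assembled transcripts, and no interval can be given.

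**Figure D5:**
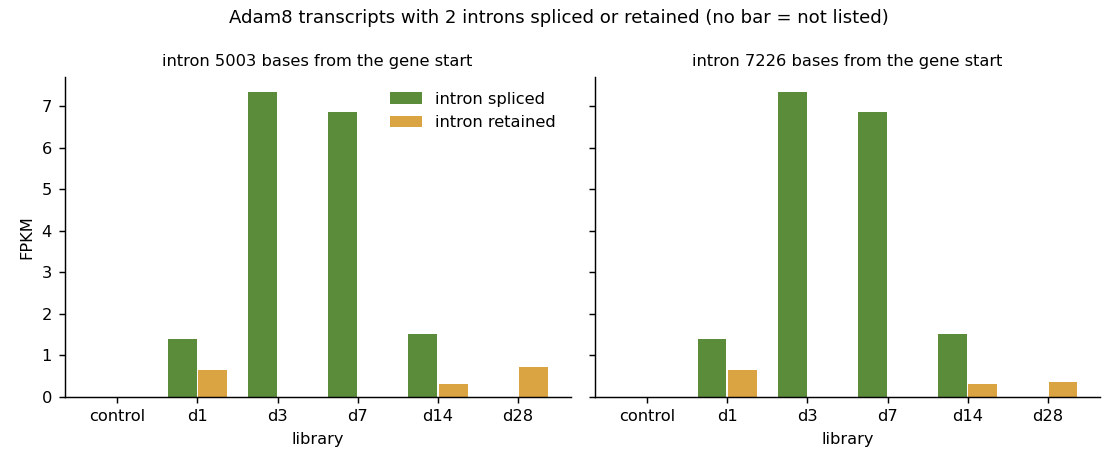
FPKM (y axis) of the spliced and the retained form of 2 introns of Adam8 in each library (x axis), 1 panel per intron, with no bar where a form was not listed. The spliced form is at 7.33 at d3 and 6.85 at d7 with no retained form listed, and at d28 the retained form alone is listed.

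Adam12, which cuts insulin-like growth factor binding proteins and is made by growing mesenchymal cells, was listed at d1 (0.425), day 3 (1.36) and day 7 (0.577) and not in control or at days 14 and 28. It reached an FPKM of 1 at d3 alone. The value came from a transcript start alone, and the gene spans chr7:133883199-134232146 on the minus strand.

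Summed levels of cell type markers also differed between the libraries, on days that matched some members and not others. At d1 Timp1 and Adamts1 were at 16.2 and 5.44. On that day the macrophage sum was 20 against 12.8 in control, the fibroblast sum 29.0 against 25.9 and the microglial sum 95.1 against 107.1. The neutrophil sum was 18.5 against 0.0729. Gfap was at 329.9 against 85.8, while the other 5 astrocyte markers summed to 377.2 against 454.4. The 6 monocyte or macrophage markers, of which 4 or 5 were listed in each library and Cd14 in none, summed to 12.8 in control, 20 at d1, 159.4 at d3, 393.4 at d7, 220.4 at d14 and 31.8 at d28. Microglial markers, with 4 or 5 of 6 listed, summed to 107.1 in control, 95.1 at d1, 236.4 at d3, 304.5 at d7, 204.8 at d14 and 107.8 at d28. Lyz2 alone was 357.1 of the macrophage sum at d7, and the microglial marker P2ry12 was at 18.0 in control and 17.7 at d7. Both sums were highest at d7, where Adam8 was at 6.85 after 7.33 at d3. The 6 fibroblast or meningeal markers, all listed in each library, summed to 25.9 in control, 29.0 at d1, 86.6 at d3, 106.8 at d7, 94.4 at d14 and 25.5 at d28. Of 8 neutrophil markers 0 to 4 were listed, with sums of 0.0729 in control, 18.5 at d1, 1.59 at d3, 0.815 at d7 and 9.41 at d14, and none listed at d28. Those listed at d1 were S100a8 (6.18), S100a9 (10.1), Retnlg (1.34) and Ngp (0.792). Ly6g, Mpo and Elane were not listed in any library, which does not show them to be absent. Astrocyte markers, all 6 listed, summed to 540.2 in control, 707.1 at d1, 1260 at d3, 916.3 at d7, 736.1 at d14 and 564.5 at d28. Gfap, the reactive astrocyte filament, singled out after its values were seen, was 85.8 of this sum in control, 329.9 at d1, 697.9 at d3 and 380.0 at d14. Without Gfap the other 5 astrocyte markers summed to 454.4 in control, 377.2 at d1, 562.3 at d3, 493.9 at d7, 356.0 at d14 and 414.8 at d28, below control at d1, d14 and d28. Endothelial sums (4 to 6 of 6 listed) ranged from 21.8 in control to 48.7 at d3, and pericyte or smooth muscle sums (5 or 6 of 6 listed) from 40.7 at d1 to 72.2 at d14. The part of these cell types in the member values was not tested.

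The proteases that the inhibitors act on were counted over whole families. Of all genes compared, 5.11% were higher and 4.48% lower at d1, 8.54% and 2.53% at d3, and 8.53% and 2.12% at d7. The shares were 8.97% and 6.92% at d14, and 3.68% and 2.79% at d28. These shares belong beside every family count that follows, and none of the counts was tested. Of 23 matrix metalloproteinase genes, 17 had a value, and the number higher than control was 1 of 6 compared at d1, 5 of 10 at d3, 7 of 11 at d7, 6 of 10 at d14 and 0 of 5 at d28, with 1, Mmp16, lower at d14. These counts are raised by the filter: 5 of the 11 compared at d7 (Mmp2, Mmp3, Mmp12, Mmp13 and Mmp19) were not listed in control and entered only through the stroke library. Mmp11, at 0.586 in control, also entered only through the stroke library. Of the genes higher at d7, Mmp14 alone had an FPKM of at least 1 in control. The 6 listed in both libraries at d7, Mmp11 among them, had a median log2 ratio of -0.02. The median over all genes compared was 0.03, a wider set that also holds genes listed in only 1 of the libraries. Mmp14, the membrane enzyme that acts with Timp2, had 4.16 in control, 5.08 at d1, 11.0 at d3, 13.5 at d7, 10.2 at d14 and 4.63 at d28, with a log2 ratio of 1.68 at d7. Mmp11 was at 0.586 in control and 1.41 at d7 (1.14), while the brain-rich Mmp17 (21.8 and 18.5) and Mmp24 (9.56 and 7.62) were within 0.32 of control.

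Of the 15 other Adamts protease genes, 12 had a value. The number higher than control was 0 of 7 at d1, 1 of 7 at d3 (Adamts6) and 2 of 9 at d7 (Adamts6 and Adamts15). It was 1 of 8 at d14 (Adamts15, with Adamts17 counted as lower because it was not listed) and 0 of 6 at d28. Adamts6 and Adamts15, at 0.421 and 0.451 in control, passed the filter only through the stroke libraries. Adamts2, a procollagen-processing enzyme, had 1.20 in control and 0.713 at d1 (-0.68), and Adamts3 had 3.22 and 2.42 (-0.40). Adamts20 had 1.39 and 2.17 (0.60), and Adamts17 had 1.03 and 0.724 (-0.46). Among the 6 Adamts-like genes, which lack the protease domain, 0 to 2 were higher or lower on any day. Adamtsl4 had 0.488 in control, 1.99 at d3 (1.83) and 2.07 at d14 (1.88), so it passed the filter only through the stroke libraries. Adamtsl2 had 5.12 in control, 1.44 at d3 (-1.76) and 4.94 at d14 (-0.05).

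Of the 7 other Adam proteases with a catalytic site, 6 were compared at each day, and none was higher. Lower were Adam19 and Adam33 at d1, the latter because it was not listed there, Adam33 at days 7 and 14, and Adam15 and Adam33 at d28. Adam33 had 1.31 in control and 0.485 at d7 (-1.27), while Adam17, which releases tumor necrosis factor and is inhibited by Timp3, had 3.74 and 6.98 (0.88). Adam15 was at 13.1 in control and 19.0 at d7 (0.53), and Adam19 at 1.63 and 2.60 (0.64). The 3 Adam proteins without a catalytic site, Adam11, Adam22 and Adam23, were each below control at d3, by -0.43 (21.1 and 15.6), -0.20 (17.1 and 14.8) and -0.40 (9.52 and 7.18), and 1 of them, Adam23, was higher at d28.

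Among the Adamts substrates, Bcan and Ncan stayed within 0.47 of control on the log2 scale and Reln and Vcan varied more. Of 5 genes 4 were compared, 0 were higher on any day, and 1 was lower at d1 (Reln) and 1 at d14 (Vcan). Reln, the signalling matrix protein reelin, had 8.36 in control, 1.95 at d1 (-2.05) and 13.8 at d14 (0.72). Vcan, versican, had 1.77 in control, 1.06 at d1 (-0.69), 2.96 at d3 (0.72), 2.71 at d7 (0.59), 0.0424 at d14 (-3.71) and 1.24 at d28 (-0.48). Bcan, brevican, had 61.2 in control and 65.3 at d1 (0.09), and Ncan, neurocan, had 29.4 and 25.1 (-0.23). A2m, the broad protease inhibitor alpha-2-macroglobulin, was higher than control at each of the 5 days, with 0.594 in control, 5.67 at d1, 10.1 at d3, 8.26 at d7, 10.8 at d14 and 1.44 at d28. Being under 1 in control, A2m passed the filter only through the stroke libraries. Lrp1, a receptor that clears such complexes, had 54.1 in control and 30.8 at d28 (-0.81), and Reck, a membrane inhibitor of matrix metalloproteinases, 2.61 and 1.44 (-0.82). In the plasminogen activator system, with 4 of 5 genes measured, 1 of 3 was higher at d1, 2 of 4 at days 3, 7 and 14, and 0 of 2 at d28, with Plaur counted at d1 to d14 although control does not list it. Plau, urokinase, had 0.783 in control and 7.78 at d7 (3.16), and it too passed the filter only through the stroke library. Plat, the tissue activator, had 10.2 and 13.9 (0.44), and Serpine2 72.8 and 98.4 (0.43). All these comparisons share the control library, so their values are given side by side with no overlap between days.

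The genes whose log2 ratios were most like a member's were found by the root mean square difference over the 5 stroke days, among genes listed in all 6 libraries. For Timp2 they were Atp1b3 (0.059), Cib1 (0.0641) and Pip4p1 (0.0648), and for Timp3 they were Prkaa1 (0.0517), Adcy6 (0.0619) and Ago2 (0.0631), of 11564 genes searched. For Timp4 they were Clk4 (0.0422), Tomm40l (0.0439) and Prpf38a (0.048), and for Adamts4 they were 5031439G07Rik (0.0403), Canx (0.0462) and Mfsd4b4 (0.0561). Timp1 and Adamts1 were not listed in 1 library each, so a search over the 4 days at which each was listed was added after their values were seen. Over 4 days, the nearest to Timp1 were Sbno2 (0.512), Osmr (0.955) and Igsf1 (1.34) of 11621 genes, and to Adamts1 they were Fhad1 (0.193), Fam173b (0.239) and Trip10 (0.262) of 11793. With so many genes and so few points, such closeness is a description only.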

How the data were processed

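RNA was measured in 6 libraries, 1 per group, each from 3 pooled mice. The authors deposited FPKM for each transcript start, transcript end or splicing event, built on mm10 (GRCm38) from strand-specific paired reads of 150 bases. The submitters' processing notes name Trimmomatic 0.30, HISAT2 2.0.1 and HTSeq 0.6.1 without their roles. Events at 0 are not listed, and 29481 duplicate rows were dropped. Genes were taken by the Ensembl identifier in the files: 15441 had a value, 15411 of them in GENCODE M21, and 93.5% of events lay inside the span of their gene. A further 879 loci without an identifier were left out. Where a locus joins neighbouring genes, a value can exceed that of the gene itself.

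The gene value is the largest of the start sum, the end sum and any single event. This construction came from earlier work on these tables, which had looked at the study's own lists before choosing it. Ratios used a pseudocount of 0.1, which makes changes of low genes look smaller, a minimum FPKM of 1 in 1 of the 2 libraries and a log2 threshold of 1. No test was possible with 1 library per group. The members and lists were chosen with earlier results of these data known. Named genes are the members, the genes they overlap, up to 4 genes per list with the largest log2 ratio at the day where the list's median was farthest from 0, and the 3 genes nearest in pattern to a member. Genes listed in a count of calls, marker genes, and further days of Mmp14, A2m, Vcan, Reln, Adamtsl2 and Adamtsl4, were named after their values were seen. Scripts (Python 3.11.15, numpy 2.4.6, pandas 2.3.3, matplotlib 3.10.9) were tested on simulated data. The alternatives were other pseudocounts, filters and gene values, a correction for transcript length, and counts over genes listed in both libraries, the last added after the data were examined. Some items that the lists or overlaps would hold are not reported here.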

Additional observations from a re-analysis of the deposited data

Results flagged for a closer look

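Adamts1 was flagged because it was counted in opposite directions at 2 times. It was higher at day 1, by a log2 ratio of 1.52, and counted as lower at day 14 only because it was not listed. Adamts1 has no day 14 value, so no decrease was measured, and the day 14 call is absent when only genes listed in both libraries are counted. With 1 library at each time the difference in calls was not tested.

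Further, 3 signals came from loci on the other strand that were not listed in control. A locus opposite Timp2 had an FPKM of 0.729 at day 3, which is included in the Timp2 value of that day because it carries the Timp2 identifier. A locus opposite the end of Adam8, in Gm16201, had 0.381 at day 14 and 0.481 at day 28. The gene value of Gm16201 was 0.428 at day 14 and 0.481 at day 28.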

How the results depend on the processing

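For the counts in this section the share over all genes was not counted, so they stand without a background. With no filter on low values, the members higher than control numbered 5 at d1, 5 at d7 and 1 at d28. Those lower were 1 at d1 (Adamts9), 2 at d14 (Adamts1 and Adamts9, both not listed) and 2 at d28 (Adamts9, and Timp1, which was not listed). With an FPKM of at least 1 in both libraries, 1 was higher at d1 (Adamts1) and 0 at days 3, 7 and 14, and 0 were lower at d14. Under that filter Timp1 and Adamts9 drop out as under 1 in control, Adam8 and Adam12 as not listed in control, and Adamts1 at d14 as not listed there. By the end sum, 2 were higher at d3 and 0 lower at d14. Counting only genes listed in both libraries, an alternative chosen after seeing the data, 2 were higher at d3, 1 at d14, and 0 lower at d14. The other 104 counts stayed within 1.5 times. Adamts9 at d7 turned to -1.46 by the end sum, and the cause was not tested beyond the events given for it, while a pseudocount of 1 gave 0.53 at d3 and 0.61 at d7. Adamts1 at d3 was 1.01 with a pseudocount of 0.01. Across the settings the log2 ratio of Timp1 was 3.75 to 5.81 at d1, 3.77 to 5.84 at d3, 2.31 to 4.21 at d7 and 2.62 to 4.58 at d14. Its unchanged direction is no support, since pseudocounts and filters cannot turn a sign and its start and end sums were equal. Depth per library is unknown, so no detection limit can be given. No paired analysis was possible because each group is 1 library and the labels give no replicate numbers.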
